A study of Brachypodium distachyon with 12 samples.

Results

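All vascular bundles (VBs) of the wild-type Brachypodium shoot apex were compared with the parenchyma of the stem. The 9 VB libraries (3 each of VB type 1, VB type 2 and VB type 3) were set against 3 libraries of parenchyma from the center of the stem, so that all 12 of the 12 libraries of the experiment were used. The members are the transcripts called in this comparison, 839 of 16706 tested. All plants were wild type (Bd21-3) and untreated, with an age of 19 days in the labels and 20 days after germination in the paper's methods, and cells were taken by laser capture microdissection, in which a laser cuts chosen cells out of a tissue section. Type 1 had no visible protoxylem cell, type 2 had 1 or 2 and type 3 had 3 or 4. The labels name the tissue as meristem and list 500 pg of RNA per library. According to the methods each replicate held elements cut from 1 to 3 plants, and a captured VB holds procambium, phloem, xylem and the cells between them, so that more cells of a type and more RNA per cell cannot be told apart.

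A VB carries water in the xylem and sugars in the phloem, and both tissues arise from the procambium. Auxin, cytokinin and small secreted peptides read by receptor kinases guide this development. Xylem cells build thick walls and then digest their own contents, while phloem sieve elements keep open pores lined with callose. Parenchyma is the ground tissue between the bundles, with large vacuoles and, in green stems, chloroplasts.

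Between 16907265 and 24210355 read pairs were counted in the VB libraries, and between 12888132 and 27218311 in parenchyma. The most abundant transcript, Bradi2g12067.1, held between 26.1 and 54.2% of all VB pairs and between 15.1 and 86.3% of those of parenchyma. Parenchyma replicate 3 stood apart, since only 1768043 of its pairs fell outside that transcript, while the remaining 11 libraries had at least 9080187 such pairs. The part of this library's depth in the results below was not tested, and values without it are given for some of the calls that depend on it. The floor of 3 pairs was 1.38 CPM (pairs scaled to library size, with TMM factors) in that library and 0.0723 to 0.166 CPM elsewhere. Values below are these normalized CPM. Log2 fold changes are VBs over parenchyma, and p-values are adjusted over all transcripts tested. The value after ± is the absolute log2 fold change divided by the square root of edgeR's quasi-likelihood F (n = 9 and 3). It is an approximate standard error, poorly defined where parenchyma held few pairs. Nothing in the labels says whether replicates came from separate plants, so the p-values measure the spread between these libraries, which may be technical. The fit takes the 9 VB libraries as independent, although some VB libraries of the same replicate number varied together, as given at the end. The p-values may be too small for that reason. Intervals on ratios and the floor cover counting error only.

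The markers of the captured tissue were checked first. XCP1 (Bradi2g39320.2), a protease of dying xylem cells, ranged from 149 to 999 CPM (median 687) in the VB libraries, against 1.301, 18.1 and 11.04 CPM in parenchyma (log2 fold change 5.90 ± 0.98, adjusted p = 0.0036). The Dof factor TMO6 (Bradi1g26570.1) ranged from 16.1 to 95.6 CPM (median 28.2) in VBs and had 3.13, 3.28 and 3.22 CPM in parenchyma (log2 fold change 3.33 ± 0.53, adjusted p = 0.0025). The groups did not overlap for either gene. PXY (Bradi3g17567.1), a receptor kinase of the cambium, and PIN1a (Bradi1g45020.1), an auxin exporter, were also higher in VBs (log2 fold changes 2.64 ± 0.68 and 2.42 ± 0.56, adjusted p = 0.041 and 0.022). PXY was called in only 5 of 12 fits that each left out 1 library (adjusted p up to 0.12), and for PIN1a the call was lost without parenchyma replicate 2 (adjusted p = 0.094). Of the 3 transcripts listed as cellulose synthases of thick walls, of which the tables describe only Bradi2g49912.1 (CESA8-like), Bradi3g28350.1 was called. It ranged from 0.6299 to 22.4 CPM (median 4.399) in VBs, with 2 pairs in all of parenchyma (a ratio of 228 with a 95% counting interval of 63.1 to 1887), and the call was lost without parenchyma replicate 1 (adjusted p = 0.051) or without parenchyma replicate 2 (adjusted p = 0.053). By contrast, Bradi2g49912.1 and Bradi4g30540.1 were not called (adjusted p = 0.15 and 0.21). Photosynthetic tissue was marked by 15 antenna and Rubisco transcripts, of which 13 were lower in VBs. Their summed level was 916 to 2731 CPM in VBs (median 2018), against 3857, 12986 and 11242 CPM in parenchyma, and the part of this difference in other results was not tested. No described transcript was found for the lists of meristem, leaf primordium and epidermis markers, and the label meristem was therefore not checked.

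Of 16706 transcripts tested, 839 were called in edgeR's quasi-likelihood test at an adjusted p of 0.05 (5.02%), of which 208 were higher (1.25%) and 631 lower (3.78%) in VBs. The transcripts higher in VBs had a median log2 fold change of 3.62, and 120 of them differed more than 8-fold. For 23 of these 208 no pair was counted in any parenchyma library, and with those set to the floor of 3 pairs the median was 3.16. The transcripts lower in VBs had a median of -2.18, with 144 beyond 8-fold, and the median over all transcripts tested was 0.01. The medians and 8-fold counts cannot show which direction changed more. The filter on low counts passes transcripts absent from parenchyma, but none present in parenchyma alone. All 9 VB libraries lay above all 3 parenchyma libraries for 194 of the 208 and below them for 457 of the 631, against 3.24 and 4.72% of all transcripts tested. Every called transcript had the same sign in the 3 VB types, as did 11715 of the 16706 tested. The call is on the mean of the 3 types, which share the parenchyma libraries, so this is a description only. Without TMM scaling, where the median over all transcripts moved to 0.18, 145 transcripts were called, 68 higher and 77 lower. Without parenchyma replicate 3 there were 573 calls, which held 104 of the 208 and 364 of the 631, and without parenchyma replicate 2 there were 613, which held 89 and 394. When the VB libraries of the same number were summed, which leaves 3 libraries against 3, 20 were higher and 50 lower.

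**Figure D1:**
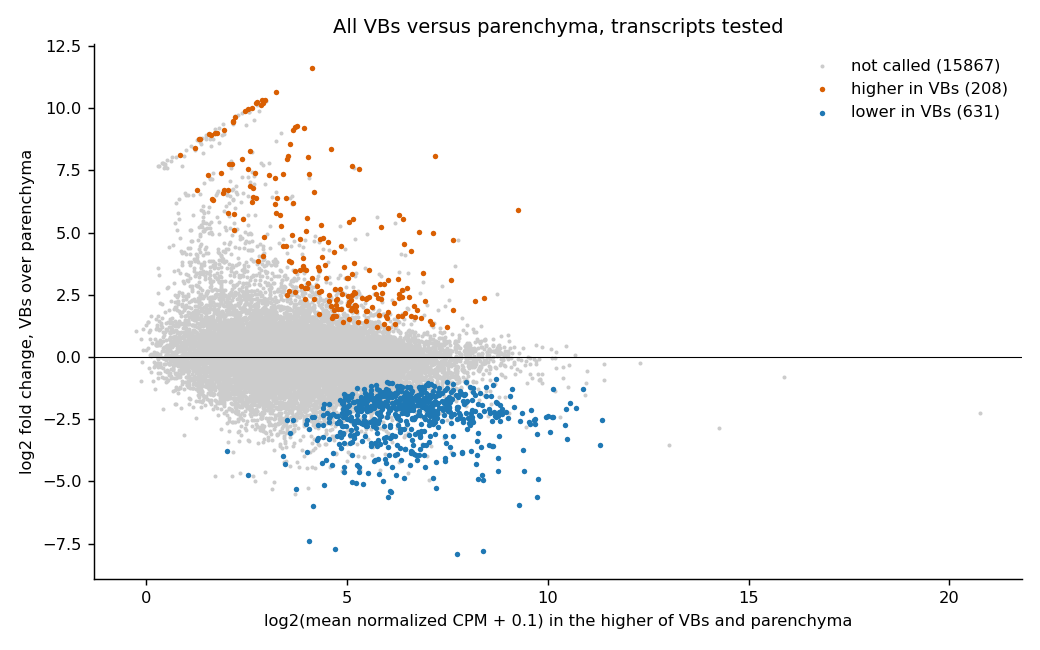
Log2 fold change of VBs over parenchyma (vertical axis) against the log2 mean normalized CPM, plus 0.1, in the higher of both tissues (horizontal axis) for the 16706 transcripts tested. The 208 transcripts higher in VBs (orange) reach down to low levels and large changes, where fitted values of transcripts absent from parenchyma depend on the prior count, while the 631 lower in VBs (blue) had a median of 87.0 CPM in parenchyma.

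The functions below come from the annotation columns of the study's supplementary tables, which give the best Arabidopsis hit and a rice description. They name a protein or family for 134 of the 208 and 271 of the 631 called transcripts, and for 1110 of all 16706 tested. That table was ordered by a test on these same libraries, and 75.5% of the 200 called transcripts with the smallest p are described, against 34.4% of those beyond rank 400. The counts per family are therefore a description of the called transcripts, read beside 134 higher, 271 lower and 705 not called among all 1110 described, with a median log2 fold change of -0.20. Gene names are those of the Arabidopsis hit, and no phylogeny was made.

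The 27 families described here were grouped after the values had been seen, so that their counts are a description. The same descriptions were also searched by 41 lists of words, whose members differ from those of the families. For heat shock proteins and chaperones, a list that also holds the large chaperones, 2 of 21 were higher and 1 lower. For photosynthesis 32 of 40 were lower, 2 higher and 6 not called. The 2 higher ones, the ENODL9-like Bradi2g52155.1 and the plantacyanin Bradi3g57010.1, were matched through the word plastocyanin in a rice description and are not proteins of photosynthesis. For starch and sucrose metabolism 6 of 14 were lower and 2 higher, the SUS6-like sucrose synthase Bradi1g29570.2 and Bradi3g52060.1, an inhibitor of invertase or pectin methylesterase. Among lists with no family here, defence and wounding had 10 lower and 2 higher of 27, of which 9, with 8 of the 10 lower ones, also stand in the list of lipid transfer proteins. Cytochromes P450 had 3 lower and 0 higher of 13. UDP-glycosyltransferases, matched by a description of a class that mostly adds sugars to small molecules, had 3 lower and 1 higher of 8. Of these 8, 2 also stand in the list of starch and sucrose metabolism. Both of these are lower, and 1 is the starch synthase Bradi1g50090.1. None of 3 transcripts of gibberellin metabolism and none of 2 of cytokinin metabolism and signalling was called.

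**Figure D2:**
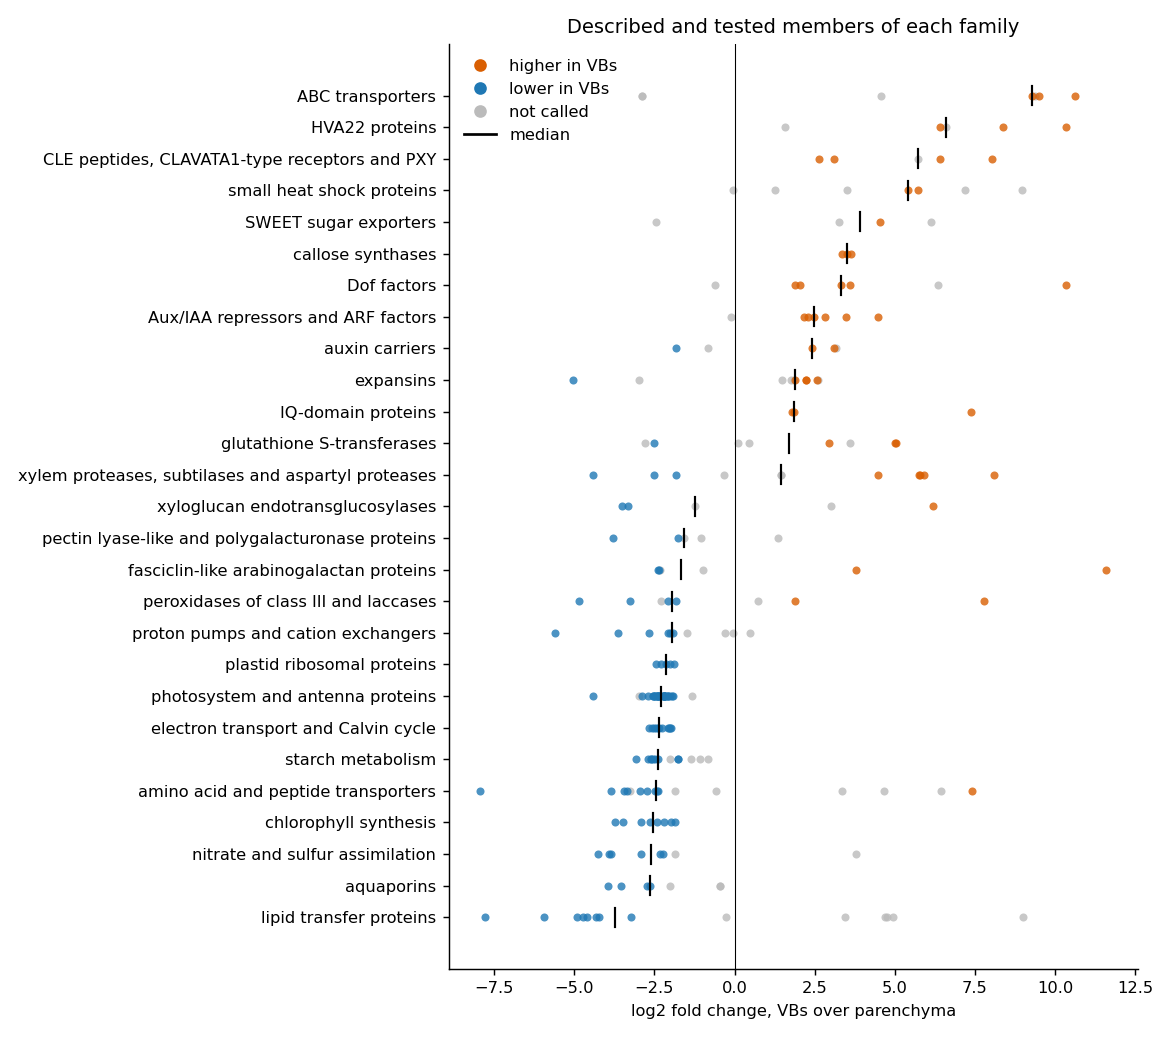
Log2 fold change of VBs over parenchyma (horizontal axis) for each described and tested member of 27 families (rows, ordered by their median, black bar). All called members of the plastid families, the aquaporins and the lipid transfer proteins lie left of 0, with 5 uncalled lipid transfer transcripts right of it, whereas the called callose synthases, Dof factors and auxin response proteins lie right of it, and several wall families have called members on both sides.

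All 3 described callose synthases, which make the glucan of sieve pores and plasmodesmata, were higher in VBs. The GSL11-like Bradi2g40441.1 ranged from 72.3 to 173 CPM (median 116) in VBs, against 6.74, 10.5 and 18.4 CPM in parenchyma (log2 fold change 3.36 ± 0.44, adjusted p = 0.0009), so that the lowest VB library lay well above the highest parenchyma library. The GSL4-like Bradi3g09320.1 and the GSL7-like Bradi2g40460.1 followed at lower levels (log2 fold changes 3.50 ± 0.71 and 3.65 ± 0.82). For the second, the call was lost without parenchyma replicate 1 (adjusted p = 0.051) or without parenchyma replicate 3 (adjusted p = 0.066). Per kb of transcript, the VB mean was 19.2 CPM for the GSL11-like, 2.19 for the GSL4-like and 2.37 for the GSL7-like transcript. Of 4 described SWEET-type sugar exporters 1 was called, Bradi3g10270.1, with values from 12.1 to 290.1 CPM (median 45.4) in VBs and 5.203, 0.804 and 5.06 CPM in parenchyma (log2 fold change 4.54 ± 1.09, adjusted p = 0.027). Here the call was lost without parenchyma replicate 1 (adjusted p = 0.068), without parenchyma replicate 2 (adjusted p = 0.095) or without parenchyma replicate 3 (adjusted p = 0.085), so that the call needs all 3 parenchyma libraries.

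Among 7 described ABC transporters, ATP-driven pumps, 3 were higher in VBs and 4 were not called. The ABCG14-like Bradi3g16130.1 ranged from 4.86 to 20.5 CPM (median 8.05) in VBs while parenchyma held no pair, a level at least 18.00-fold higher against the floor of 3 pairs averaged over the parenchyma libraries (adjusted p = 0.0010). In Arabidopsis, ABCG14 loads cytokinin for transport from root to shoot. The MRP11-like Bradi1g47277.1 ranged from 1.41 to 51.3 CPM (median 9.18) in VBs, where 1 pair was counted in all of parenchyma (a ratio of 1058 with a 95% counting interval of 189.7 to 41800, adjusted p = 0.0071). For the ALS3-like Bradi2g37680.1, named in Arabidopsis for aluminum tolerance and found in its phloem, the VB level was at least 8.44-fold higher (adjusted p = 0.019). For the ALS3-like transcript the call was lost without parenchyma replicate 1 (adjusted p = 0.059) or without parenchyma replicate 2 (adjusted p = 0.063), while the calls of the other two held in all 12 such fits.

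Of 7 described Aux/IAA repressors and ARF factors, which together set the auxin response, 6 were higher in VBs, without overlap of the groups, and 1 was not called. The IAA3-like Bradi4g02580.1 ranged from 22.4 to 92.2 CPM (median 46.8) in VBs, against 8.38, 5.76 and 7.36 CPM in parenchyma (log2 fold change 2.81 ± 0.44, adjusted p = 0.0023). The ARF7-like Bradi1g34340.1, an activator, ranged from 39.7 to 152 CPM (median 57.1) in VBs and had 13.3, 16.6 and 17.5 CPM in parenchyma (log2 fold change 2.16 ± 0.44, adjusted p = 0.011). Bradi1g62700.1 was higher as well (log2 fold change 3.48 ± 0.66, adjusted p = 0.0080), but its membership is uncertain, since the rice description names an auxin response factor and the Arabidopsis hit is RAD9, a cell cycle checkpoint protein. The WAT1-like Bradi4g21220.1, a vacuolar auxin carrier needed for fiber walls in Arabidopsis, ranged from 90.9 to 314 CPM (median 176) in VBs, against 25.3, 13.4 and 28.1 CPM in parenchyma (log2 fold change 3.10 ± 0.43, adjusted p = 0.0011). An auxin efflux carrier family member went the other way, Bradi2g61980.4, with values from 15.5 to 33.1 CPM (median 18.8) in VBs and 56.9, 67.7 and 107 CPM in parenchyma (log2 fold change -1.83 ± 0.32, adjusted p = 0.0045).

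CLE peptides are short secreted signals, and CLAVATA1-type receptor kinases bind them. Of 5 described members 4 were higher in VBs, with PXY among them, and 1 was not called. The CLE26-like Bradi1g54656.1 ranged from 2.05 to 13.4 CPM (median 10.3) in VBs, against 0, 0.235 and 0 CPM in parenchyma (log2 fold change 6.40 ± 1.29, adjusted p = 0.011). In Arabidopsis this peptide restrains protophloem formation in the root. The BAM1-like receptor Bradi4g21830.1 ranged from 42.4 to 106 CPM (median 56.7) in VBs and had 3.13, 4.36 and 16.6 CPM in parenchyma (log2 fold change 3.09 ± 0.56, adjusted p = 0.0062), and the CLV1-like Bradi1g30160.1 ranged from 6.42 to 32.7 CPM (median 16.1) in VBs, where parenchyma held 3 pairs in all (a ratio of 410.2 with a 95% counting interval of 140.2 to 1990, adjusted p = 0.0023). The peptide and both receptors thus had higher levels in every VB library than in any parenchyma library. One receptor-like kinase was lower, the GSO1-like Bradi1g26900.1, with values from 0 to 4.16 CPM (median 0.0487) in VBs, against 16.8, 28.3 and 7.36 CPM in parenchyma (log2 fold change -5.98 ± 1.36, adjusted p = 0.021). It passed the filter in only 6 of the 12 fits that left out 1 library, and not in the fit without parenchyma replicate 3.

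**Figure D3:**
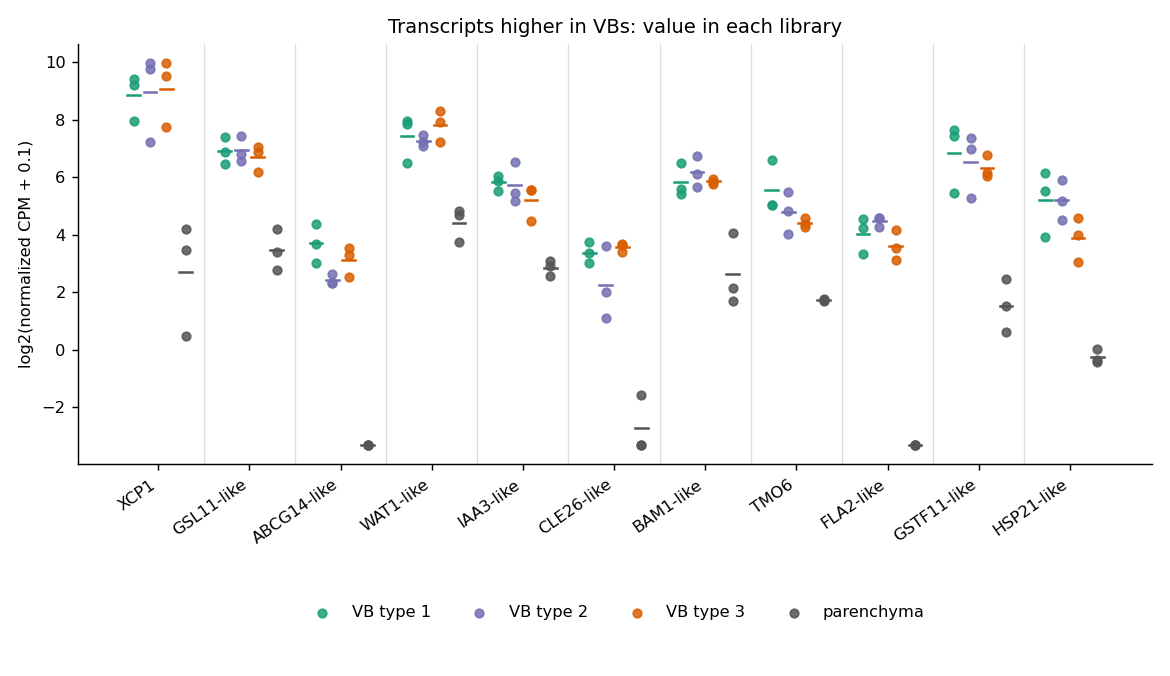
Log2 normalized CPM, plus 0.1, in each of the 12 libraries (points) for 11 transcripts higher in VBs, with the mean of each group's log2 values as a bar. The VB libraries of every type sit above the 3 parenchyma libraries for each of them, and the ABCG14-like and FLA2-like transcripts had no pair in parenchyma. The 11 were picked from the named transcripts, part of which were named on the condition that the groups do not overlap. Of all 208 transcripts higher in VBs, 194 did not overlap.

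Transcription factors of the Dof class, plant proteins with a single zinc finger, were higher for 5 of 7 described members and lower for none. The groups did not overlap for 4 of the 5, and 4 were still called without parenchyma replicate 3. The call of Bradi2g10640.1, for which the groups overlapped, was close to the threshold (adjusted p = 0.0497). Beside TMO6, the OBP3-like Bradi2g37130.1 ranged from 10.9 to 48.9 CPM (median 30.4) in VBs, against 4.504, 1.31 and 0.9197 CPM in parenchyma (log2 fold change 3.61 ± 0.66, adjusted p = 0.0063). The DAG1-like Bradi3g51510.3 ranged from 64.02 to 139 CPM (median 104) in VBs and had 11.1, 22.1 and 41.8 CPM in parenchyma (log2 fold change 2.04 ± 0.44, adjusted p = 0.016), and the call was lost without parenchyma replicate 2 (adjusted p = 0.069). Bradi3g52880.1, whose hit HCA2 promotes cambium in Arabidopsis, was at log2 fold change 1.88 ± 0.42 (adjusted p = 0.019), and the call was lost without parenchyma replicate 1 (adjusted p = 0.063). A MYB family transcript, Bradi2g04810.1, ranged from 3.75 to 25.6 CPM (median 8.37) in VBs, against 0.0241, 0.235 and 0 CPM in parenchyma (log2 fold change 6.40 ± 1.11, adjusted p = 0.0045). The NAC057-like Bradi4g37318.1 and the MYR1-like Bradi1g17400.1 had no pair in parenchyma and were at least 11.8-fold and 12.8-fold higher in VBs (adjusted p = 0.0082 and 0.010). In the homeodomain-leucine zipper family the ATHB13-like Bradi1g73190.1 was lower, with values from 0 to 19.9 CPM (median 6.72) in VBs and 83.6, 93.9 and 59.8 CPM in parenchyma (log2 fold change -3.66 ± 0.79, adjusted p = 0.016), and the call was lost without parenchyma replicate 2 (adjusted p = 0.056). All 3 described IQ-domain proteins, which bind calmodulin and microtubules, were higher. The IQD32-like Bradi5g25090.1 was at log2 fold change 1.80 ± 0.40 and the IQD31-like Bradi2g48210.12 at log2 fold change 1.85 ± 0.42. The IQD33-like Bradi1g36140.1 had 3 pairs in all of parenchyma (a ratio of 257 with a 95% counting interval of 87.9 to 1249). For IQD32 the call was lost without parenchyma replicate 2 (adjusted p = 0.059), for IQD31 the call was lost without parenchyma replicate 2 (adjusted p = 0.088) or without parenchyma replicate 3 (adjusted p = 0.076), and for IQD33 the call was lost without parenchyma replicate 1 (adjusted p = 0.080) or without parenchyma replicate 2 (adjusted p = 0.075).

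Proteases differed in both directions. Bradi1g50760.1, an aspartyl protease, ranged from 13.6 to 465 CPM (median 92.96) in VBs, against 0.0482, 0.369 and 2.299 CPM in parenchyma (log2 fold change 8.09 ± 1.51, adjusted p = 0.0072). The subtilase Bradi4g31360.1 ranged from 12.04 to 52.5 CPM (median 29.9) in VBs and had 0.289, 0.436 and 4.599 CPM in parenchyma (log2 fold change 4.47 ± 0.91, adjusted p = 0.011), and the call was lost without parenchyma replicate 2 (adjusted p = 0.054). With XCP1 and 2 others, 5 of 11 described proteases of these classes were higher, and 3 of the 5 were still called without parenchyma replicate 3. The 3 lower ones were the aspartyl proteases Bradi2g17030.1 and Bradi1g19070.1 (log2 fold changes -2.53 ± 0.47 and -4.42 ± 0.99) and the aleurain-like vacuolar protease Bradi4g31440.2 (log2 fold change -1.83 ± 0.35, adjusted p = 0.0083). The aleurain-like transcript ranged from 26.05 to 77.9 CPM (median 44.4) in VBs, against 162, 234 and 115 CPM in parenchyma, and the call was lost without parenchyma replicate 2 (adjusted p = 0.057). For Bradi1g19070.1 likewise the call was lost without parenchyma replicate 2 (adjusted p = 0.10).

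Wall proteins were split within families. Of 6 described fasciclin-like arabinogalactan proteins, wall glycoproteins, 2 were higher and 2 lower. The FLA2-like Bradi3g56390.1 ranged from 8.67 to 24.00 CPM (median 18.6) in VBs with no pair in parenchyma, at least 33.6-fold higher (adjusted p = 0.00033, the smallest among the transcripts higher in VBs). The FLA1-like Bradi4g33040.1 ranged from 20.3 to 54.02 CPM (median 32.2) in VBs, against 2.14, 4.39 and 0.4599 CPM in parenchyma (log2 fold change 3.79 ± 0.61, adjusted p = 0.0027). By contrast, the FLA13-like Bradi2g16560.2 ranged from 32.1 to 95.97 CPM (median 61.1) in VBs and had 139, 343 and 464 CPM in parenchyma (log2 fold change -2.36 ± 0.35, adjusted p = 0.0016), and the SOS5-like Bradi2g23270.2 was lower too (log2 fold change -2.38 ± 0.45).

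Expansins loosen walls, and xyloglucan endotransglucosylases cut and rejoin wall glucans. Of 10 described expansins 4 were higher, such as the EXPB3-like Bradi5g16497.1 with values from 15.8 to 56.1 CPM (median 32.5) in VBs and 6.41, 5.63 and 9.197 CPM in parenchyma (log2 fold change 2.23 ± 0.48, adjusted p = 0.016). For it the call was lost without parenchyma replicate 1 (adjusted p = 0.056) or without parenchyma replicate 2 (adjusted p = 0.073). Of the 4 higher expansins, 2 were still called without parenchyma replicate 3. The EXPB2-like Bradi3g33106.1 was lower, with values from 0 to 7.61 CPM (median 0.664) in VBs, against 37.9, 62.96 and 3.68 CPM in parenchyma (log2 fold change -5.03 ± 1.17, adjusted p = 0.023), although the groups overlapped, and it was called in only 5 of 12 fits that left out 1 library, having passed the filter in 6 of them. Among 5 described xyloglucan enzymes the XTH26-like Bradi3g10290.1 was higher, with values from 2.47 to 23.8 CPM (median 14.5) in VBs and 0.0723, 0.302 and 0 CPM in parenchyma (log2 fold change 6.21 ± 1.21, adjusted p = 0.0087). The XTH25-like Bradi1g33840.1 and the TCH4-like Bradi1g33810.1 were lower (log2 fold changes -3.31 ± 0.49 and -3.52 ± 0.60). The summed level of the 5 was 129 to 524 CPM in VBs (median 421), against 775, 2629 and 2366 CPM in parenchyma.

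Few genes of lignin and xylan, the polymers of thick walls, were described, and those called were not all on the VB side. The lists held 1 transcript for lignin precursors, 1 laccase and 4 for xylan synthesis, with 0 for cellulose synthase A. Of the 4, 1 was higher, 1 lower and 2 not called, with 3 of the 4 above 0. The 4 include the CCR1-like transcript below, also listed for lignin precursors, and the CESA8-like Bradi2g49912.1. The CCR1-like Bradi3g36887.1, an enzyme of lignin precursors, ranged from 38.5 to 234 CPM (median 101) in VBs, against 32.8, 13.6 and 28.5 CPM in parenchyma (log2 fold change 2.26 ± 0.56, adjusted p = 0.033). Lower in VBs was the LAC14-like laccase Bradi3g59210.1, a class of wall oxidases, with values from 0.0393 to 18.5 CPM (median 0.806) in VBs and 97.1, 276 and 51.04 CPM in parenchyma (log2 fold change -4.85 ± 1.28, adjusted p = 0.045). The IRX9-like Bradi1g16540.1, a glycosyltransferase of xylan synthesis, was also lower, with values from 6.71 to 54.01 CPM (median 14.5) in VBs, against 71.7, 74.8 and 90.1 CPM in parenchyma (log2 fold change -2.03 ± 0.54, adjusted p = 0.047). These 3 calls depended on single libraries. Of 12 fits that left out 1 library, CCR1 was called in 6, LAC14 in 2 and IRX9 in 2, with adjusted p up to 0.13, 0.17 and 0.14. Class III peroxidases and laccases together had 2 higher and 4 lower of 8 described members, of which 0 higher and 3 lower were still called without parenchyma replicate 3. Of 5 described pectin or pectate lyase and polygalacturonase transcripts the polygalacturonases Bradi2g18040.1 and Bradi2g18030.1 were lower (log2 fold changes -1.78 ± 0.30 and -3.80 ± 0.78). For the second, the call was lost without parenchyma replicate 3 (adjusted p = 0.064).

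Glutathione S-transferases, which join glutathione to small molecules, had 3 higher and 1 lower of 8 described members. The GSTF11-like Bradi1g76090.1 ranged from 38.2 to 198 CPM (median 109) in VBs, against 5.395, 1.44 and 2.76 CPM in parenchyma (log2 fold change 5.04 ± 0.72, adjusted p = 0.0013), and the next identifier, the GSTF8-like Bradi1g76080.1, was higher too, from 33.5 to 309 CPM (median 107) in VBs, against 3.59, 5.03 and 3.22 CPM in parenchyma (adjusted p = 0.0025). Only pairs that hit 1 transcript without ambiguity were counted. If these 2 are near copies, pairs that match both would be missing from both levels. HVA22 proteins of the endoplasmic reticulum were higher for 3 of 5 described members. The HVA22E-like Bradi3g37920.1 ranged from 11.98 to 55.5 CPM (median 19.7) in VBs, where parenchyma held 3 pairs in all (a ratio of 585 with a 95% counting interval of 200.04 to 2837, adjusted p = 0.0019), and Bradi4g31810.1, with the same Arabidopsis hit, was at least 14.7-fold higher. Small heat shock proteins of the hsp20 class were higher for 2 of 7 and lower for none, and Bradi3g20840.1 ranged from 8.201 to 71.2 CPM (median 23.9) in VBs, against 0.6503, 0.6702 and 0.9197 CPM in parenchyma (log2 fold change 5.42 ± 0.71, adjusted p = 0.0009). In Arabidopsis HSP21 is a chaperone of the chloroplast. Outside these families, Bradi4g06396.1 of the UPF0497 membrane proteins, the family of the Casparian strip proteins, ranged from 6.88 to 89.3 CPM (median 31.6) in VBs and had 0.169, 0.168 and 0.4599 CPM in parenchyma (log2 fold change 7.54 ± 0.97, adjusted p = 0.0009). The PDF2.3-like defensin Bradi1g76420.2 ranged from 34.4 to 415 CPM (median 152) in VBs, against 2.22, 2.88 and 18.9 CPM in parenchyma (log2 fold change 4.69 ± 1.04, adjusted p = 0.019), and the call was lost without parenchyma replicate 1 (adjusted p = 0.068) or without parenchyma replicate 2 (adjusted p = 0.081).

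Chloroplast transcripts stood on the parenchyma side. According to the paper, nascent VBs in the shoot apex were detected by their low chlorophyll. The levels of these transcripts are therefore not independent of how VBs were chosen, and the part of that choice was not tested. This also holds for the antenna markers above and the chlorophyll enzymes below. Of 32 described photosystem and antenna transcripts 30 were lower in VBs and 2 were not called, and all 11 of electron transport and the Calvin cycle were lower. The summed level of the first family was 2060.3 to 4774 CPM in VBs (median 3603), against 8985, 21835 and 20895 CPM in parenchyma. PSBR-like Bradi3g17640.1, a subunit of photosystem II, ranged from 164 to 273 CPM (median 187) in VBs, against 791, 1084 and 1191 CPM in parenchyma (log2 fold change -2.39 ± 0.21, adjusted p = 0.00017). PSAL-like Bradi4g08020.1 of photosystem I ranged from 92.7 to 165 CPM (median 124) in VBs and had 468, 901 and 1103 CPM in parenchyma (log2 fold change -2.70 ± 0.26, adjusted p = 0.00022). The groups did not overlap for 25 of the 30. LHCB2-like Bradi1g15290.1, an antenna protein, was 1 of the 5 that overlapped, with values from 75.1 to 389 CPM (median 187) in VBs and 339, 1674 and 1269 CPM in parenchyma (log2 fold change -2.43 ± 0.39, adjusted p = 0.0030). In the Calvin cycle the FBA2-like aldolase Bradi4g24367.1 ranged from 82.6 to 192 CPM (median 110.0) in VBs, against 671, 885 and 711 CPM in parenchyma (log2 fold change -2.68 ± 0.23, adjusted p = 0.00017). Rubisco's small subunit, RBCS1A-like Bradi3g26391.1, ranged from 53.7 to 253 CPM (median 137) in VBs and had 402, 839 and 1157 CPM in parenchyma (log2 fold change -2.52 ± 0.39, adjusted p = 0.0023). Without parenchyma replicate 3, 28 of the 30 and 10 of the 11 were still called.

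Chlorophyll synthesis and the plastid's own ribosomes followed. All 8 described enzymes of chlorophyll synthesis were lower in VBs, and 6 of them were still called without parenchyma replicate 3. A PORA-like Bradi5g26230.1, which makes chlorophyllide in the light, ranged from 9.39 to 119 CPM (median 55.1) in VBs, against 181, 1250 and 564 CPM in parenchyma (log2 fold change -3.73 ± 0.42, adjusted p = 0.00047), and Bradi3g57380.1 with the same hit was at log2 fold change -2.43 ± 0.27. CRD1-like Bradi2g10770.1, a cyclase of the same path, ranged from 51.7 to 131 CPM (median 85.5) in VBs and had 227, 329 and 364 CPM in parenchyma (log2 fold change -1.87 ± 0.27, adjusted p = 0.0013). All 5 described plastid ribosomal proteins were lower, with log2 fold changes between -2.46 and -1.90, and 4 were still called without parenchyma replicate 3. For RPL15-like Bradi1g69650.6 the VB libraries ranged from 8.39 to 37.5 CPM (median 20.4), against 95.7, 122 and 84.6 CPM in parenchyma (adjusted p = 0.0011).

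**Figure D4:**
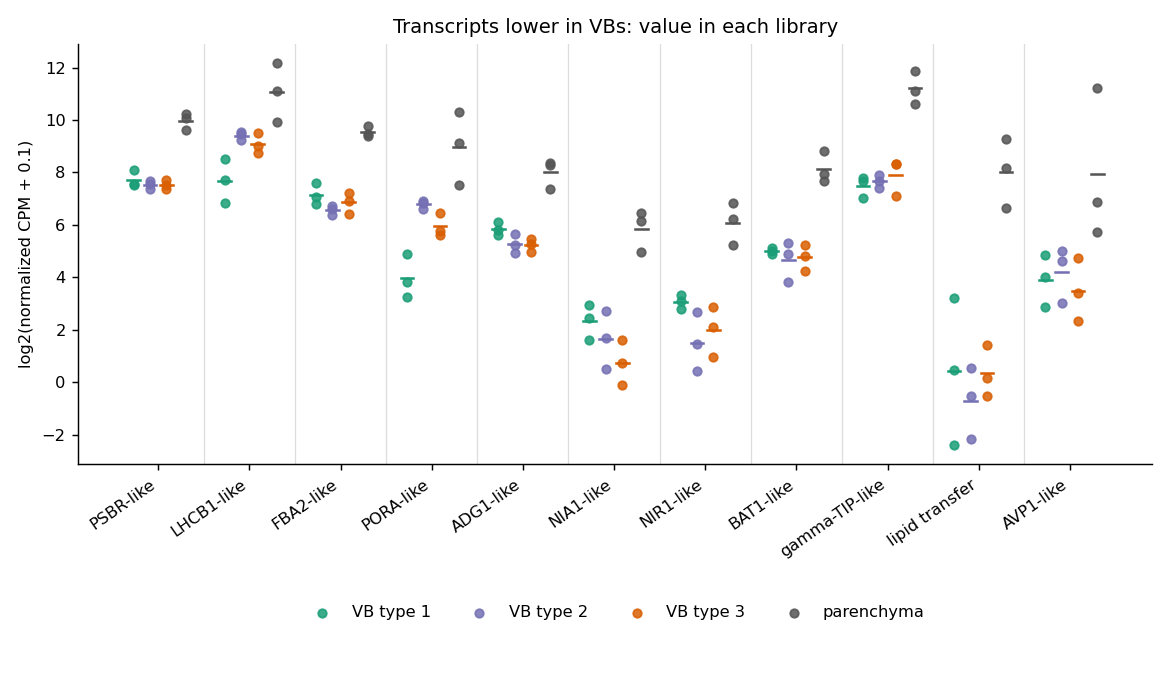
Log2 normalized CPM, plus 0.1, in each of the 12 libraries (points) for 11 transcripts lower in VBs, with the mean of each group's log2 values as a bar. The VB libraries lie below the 3 parenchyma libraries for each of them, and for the AVP1-like transcript parenchyma replicate 3 lies far above the other libraries of its group. The 11 were picked from the named transcripts, part of which were named on the condition that the groups do not overlap. Of all 631 transcripts lower in VBs, 457 did not overlap.

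Starch, the store of fixed carbon, was the next group, with 9 of 13 described transcripts lower and none higher. Of the 9, 8 were still called without parenchyma replicate 3. ADG1-like Bradi3g22330.1, a subunit of the enzyme that makes ADP-glucose, ranged from 30.7 to 69.96 CPM (median 43.7) in VBs, against 316, 325 and 167 CPM in parenchyma (log2 fold change -2.61 ± 0.26, adjusted p = 0.00022). APL2-like Bradi2g14970.1, annotated as the large subunit of that enzyme, ranged from 7.69 to 35.1 CPM (median 14.1) in VBs and had 138, 213 and 89.2 CPM in parenchyma (log2 fold change -3.08 ± 0.38, adjusted p = 0.00076). A starch synthase, Bradi1g50090.1, was at log2 fold change -1.76 ± 0.29 (adjusted p = 0.0030). The summed level of the 13 was 252 to 408 CPM in VBs (median 350.03), against 1407, 1844 and 1607 CPM in parenchyma, without overlap.

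Reduction of nitrate and sulfate and carriers of organic nitrogen were on the same side. NIA1-like Bradi3g37940.1, nitrate reductase, ranged from 0.824 to 7.68 CPM (median 2.997) in VBs, against 87.1, 70.3 and 31.3 CPM in parenchyma (log2 fold change -4.26 ± 0.50, adjusted p = 0.00057). NIR1-like Bradi3g57990.1, nitrite reductase, which acts next, ranged from 1.23 to 9.89 CPM (median 6.25) in VBs and had 113, 73.9 and 37.7 CPM in parenchyma (log2 fold change -3.91 ± 0.48, adjusted p = 0.00073). Both steps of nitrate reduction were thus lower in every VB library. SULTR3;1-like Bradi1g74420.1, a sulfate carrier, and CYSC1-like Bradi5g00610.1, a cysteine synthase, were lower as well (log2 fold changes -2.91 ± 0.45 and -2.25 ± 0.24), for 6 of 8 described transcripts in all. Of 16 described amino acid and peptide transporters 9 were lower and 1 higher. BAT1-like Bradi2g43062.1 ranged from 13.98 to 39.9 CPM (median 29.6) in VBs, against 204, 246 and 453 CPM in parenchyma (log2 fold change -3.36 ± 0.32, adjusted p = 0.00022). Bradi3g00282.1, a transmembrane amino acid transporter, had the largest fall of the named transcripts, with values from 0 to 13.5 CPM (median 0.439) in VBs and 98.2, 500.0 and 36.3 CPM in parenchyma (log2 fold change -7.93 ± 1.02, adjusted p = 0.0009). The exception was the PTR2-type Bradi2g50580.1, higher in VBs at low levels with 1 pair in all of parenchyma (a ratio of 246 with a 95% counting interval of 44.03 to 9736, adjusted p = 0.024), for which the call was lost without parenchyma replicate 1 (adjusted p = 0.076), without parenchyma replicate 2 (adjusted p = 0.059) or without parenchyma replicate 3 (adjusted p = 0.057).

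Channels, pumps and ion exchangers included further transcripts lower in VBs. Of 7 described aquaporins 4 were lower and none higher. The gamma-TIP-like Bradi1g75290.1 of the tonoplast ranged from 131 to 322 CPM (median 207) in VBs, against 2203, 3765 and 1579 CPM in parenchyma (log2 fold change -3.55 ± 0.30, adjusted p = 0.00017). PIP2A-like Bradi1g28760.1 of the plasma membrane ranged from 52.95 to 336 CPM (median 186) in VBs and had 1237, 2282 and 588 CPM in parenchyma (log2 fold change -2.73 ± 0.45, adjusted p = 0.0031). TIP1;3-like Bradi2g62520.1 was at log2 fold change -3.94 ± 0.60. Proton pumps and cation exchangers were lower for 6 of 10 and higher for none. AVP1-like Bradi1g30550.1, a proton pump of the vacuole, ranged from 4.94 to 32.2 CPM (median 16.1) in VBs, against 116, 53.6 and 2379 CPM in parenchyma (log2 fold change -5.61 ± 0.83, adjusted p = 0.0016), and without parenchyma replicate 3 its log2 fold change was -2.27 (adjusted p = 0.061). KEA3-like Bradi4g01430.1, a potassium and proton exchanger of the thylakoid in Arabidopsis, had 55.98, 38.7 and 474 CPM in parenchyma (log2 fold change -3.63 ± 0.55) and gave -1.62 without that library (adjusted p = 0.042). Parenchyma replicate 3 was far the highest library for both. Bradi2g47980.4, a subunit of the vacuolar proton ATPase, was at log2 fold change -1.92 ± 0.37 (adjusted p = 0.0089) and gave -2.17 without that library (adjusted p = 0.012). Only 2 of the 6 calls in this family were kept without it.

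Lipid transfer proteins, small secreted proteins that bind lipids, held some of the steepest falls. Of 14 described members 8 were lower and 6 were not called, with values above 0 for 5 of the 6. Bradi1g78240.1 ranged from 0.08998 to 9.14 CPM (median 1.02) in VBs, against 284, 617 and 101 CPM in parenchyma (log2 fold change -7.80 ± 0.88, adjusted p = 0.00047). Bradi5g23770.1 ranged from 0.945 to 48.5 CPM (median 2.67) in VBs and had 567, 717 and 596 CPM in parenchyma (log2 fold change -5.94 ± 0.88, adjusted p = 0.0016). Bradi3g33060.1 and Bradi1g30420.1 were at log2 fold changes -4.59 ± 0.49 and -4.22 ± 0.57. All 8 were still called without parenchyma replicate 3. Outside these families, the terpene synthase Bradi4g04987.2 ranged from 0.976 to 39.6 CPM (median 4.28) in VBs, against 228, 494 and 288 CPM in parenchyma (log2 fold change -4.94 ± 0.85, adjusted p = 0.0043). BR6OX2-like Bradi1g15030.1, an enzyme of brassinosteroid synthesis, ranged from 0.703 to 23.00 CPM (median 4.99) in VBs and had 113, 77.7 and 13.8 CPM in parenchyma (log2 fold change -3.22 ± 0.59, adjusted p = 0.0068), with an overlap of the groups. BOR4-like Bradi2g34110.1, a boron exporter, was at log2 fold change -3.34 ± 0.43 (adjusted p = 0.0009).

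The 3 VB types were then compared within the same fit. No transcript of 16706 was called among them in the quasi-likelihood test (0%), 242 had an unadjusted p under 0.05, and the likelihood ratio test called 3. The 242 are 1.45% of those tested, less than the share of 0.05 that would be expected with no difference. The test was thus conservative here, and the absence of calls does not show that the types are alike. The log2 fold changes of the 3 types, which share the parenchyma libraries, lay within 1 of each other for 138 of the 208 transcripts higher in VBs and 448 of the 631 lower. Among all transcripts tested this held for 67.3%, near the 66.3 and 71.0% of both lists. An unadjusted p under 0.05 among the types was found for 5 of the 208 (2.40%) and 56 of the 631 (8.87%), against 1.45% of all tested, and this is a description, since the lists come from the same fit. The GSL11-like Bradi2g40441.1 had log2 fold changes of 3.43, 3.44 and 3.21 in types 1, 2 and 3, and the BAT1-like Bradi2g43062.1 had -3.23, -3.44 and -3.41. Among the called and named plastid transcripts the widest spread was that of the PORA-like Bradi5g26230.1, with -5.23, -2.59 and -3.38 (unadjusted p = 0.0027, adjusted p = 1.00). TMO6 (Bradi1g26570.1) had 4.05, 3.21 and 2.73 and the HSP21-like Bradi3g20840.1 5.96, 5.79 and 4.50 (unadjusted p = 0.057 and 0.069), and the test called neither (adjusted p = 1.00 and 1.00).

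**Figure D5:**
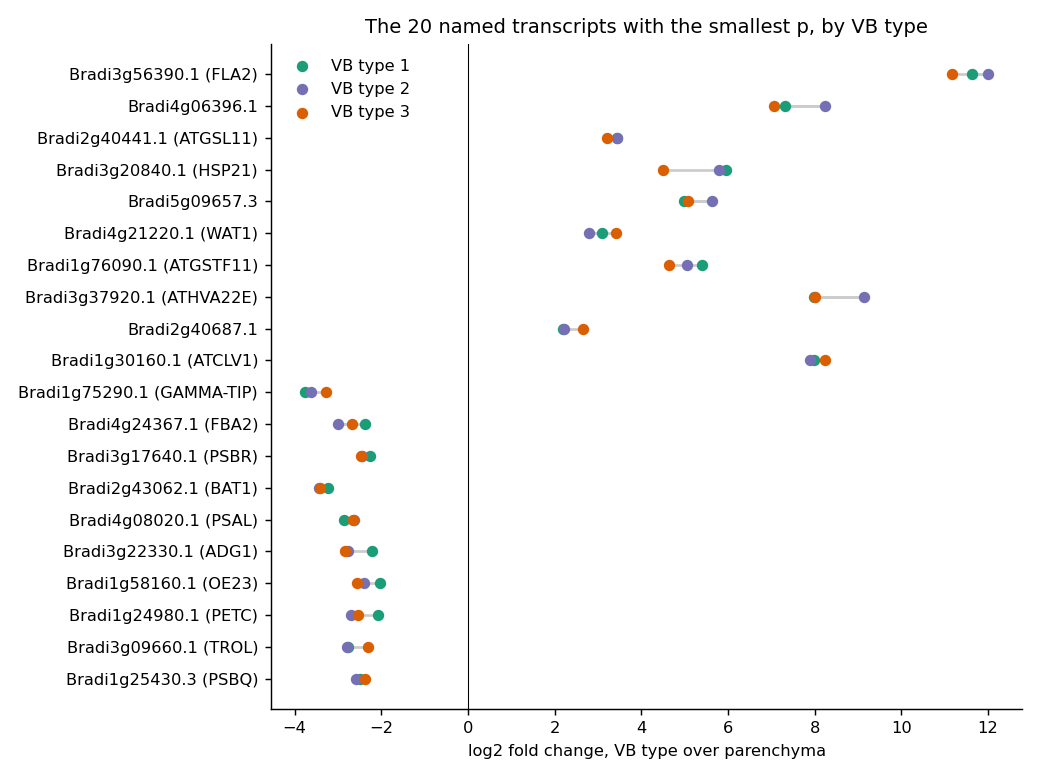
Log2 fold change over parenchyma (horizontal axis) of VB type 1, VB type 2 and VB type 3 (colored points, joined by a line) for the 10 higher and the 10 lower named transcripts with the smallest p. The 3 types lie on the same side of 0 in every row, which was a condition for naming these transcripts, and they share the 3 parenchyma libraries.

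The called transcripts were also compared in length and level. The median transcript length was 2054.5 bases for those higher in VBs and 1769 bases for those lower, against 1926 bases over all tested. The median level was 21.9 CPM in VBs and 1.84 CPM in parenchyma for the transcripts higher in VBs, and 19.2 CPM in VBs and 87.0 CPM in parenchyma for those lower. The filter, at least 1 CPM in 6 of 12 libraries, cannot pass a transcript present in parenchyma alone. A filter at 3 of 12 libraries added 2686 transcripts, of which 27 were called lower in VBs and 0 higher.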

How the data were processed

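RNA of 9 VB and 3 parenchyma libraries was sequenced in pairs, and the labels gave each library's group. According to the methods, the authors trimmed the reads, removed ribosomal reads, aligned them with Bowtie 2 and deposited counts of read pairs per transcript in which both mates hit 1 transcript without ambiguity. The labels call the libraries unstranded and the methods stranded, so overlapping and antisense transcripts cannot be told apart. The design text gives 1 biological replicate and the methods give 3.

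Pair counts were tested here with edgeR 4.0.16 (R 4.3.3; quasi-likelihood F-test, TMM, 4 groups in 1 fit of 12 libraries, mean of the 3 VB types minus parenchyma) on 16706 of 34310 transcripts, those that reached 1 CPM in 6 or more libraries. P-values were adjusted by Benjamini-Hochberg at 0.05. Depth limits low transcripts to the floor of 3 pairs.

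Transcripts were named if described, non-overlapping, of 1 sign in the 3 types and at 10 CPM or more (12 largest changes and 10 smallest p in each direction), or as up to 3 called members per list or family with the smallest p, or as tissue markers. Members and lists were chosen with earlier results of these data known, and the 27 families were grouped after values were seen. The 41 lists were meant for a genome-wide annotation, which was not used here, so they were searched in the supplementary descriptions and serve as description only. One supplementary annotation table was not used because none of its 525 transcripts shared with another table had the same hit. Alternatives were the edgeR likelihood ratio test, DESeq2 1.42.0, limma-voom 3.58.1, other scalings, filters and groupings, a replicate block, and leaving out each library. Sequences and coordinates are not shown.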

Additional observations from a re-analysis of the deposited data

Results flagged for a closer look

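The highest and the lowest of the 9 VB libraries were compared with the rest for 144 named called transcripts and 5 measures of library quality. In 29 of these 149 sets of values, all of them transcripts, the gap to the nearest library, as a share of the range, exceeded Dixon's 95% critical value, where chance flags about 1 in 20. In all 29 it was the highest library, and its level is given with that of the next library.

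In VB type 1 replicate 1 this held for Bradi3g09320.1 (31.2 CPM, next 18.1) and Bradi3g16130.1 (20.5 CPM, next 12.7). In VB type 1 replicate 2 this held for Bradi1g26570.1 (95.6 CPM, next 45.1). In VB type 1 replicate 3 this held for Bradi1g24980.1 (85.01 CPM, next 56.2), Bradi1g30420.1 (19.7 CPM, next 11.8), Bradi1g33740.1 (17.4 CPM, next 7.99), Bradi1g48870.1 (117 CPM, next 60.3), Bradi1g58210.1 (2.18 CPM, next 0.976), Bradi1g73190.1 (19.9 CPM, next 9.51), Bradi1g78240.1 (9.14 CPM, next 2.61), Bradi1g78250.1 (43.1 CPM, next 14.2), Bradi2g10740.1 (52.9 CPM, next 32.3), Bradi3g17640.1 (273 CPM, next 210.4), Bradi3g27610.1 (24.4 CPM, next 15.2), Bradi5g12330.2 (306 CPM, next 182) and Bradi5g23770.1 (48.5 CPM, next 24.3). In VB type 2 replicate 1 this held for Bradi3g33106.1 (7.61 CPM, next 3.06). In VB type 2 replicate 2 this held for Bradi3g28350.1 (22.4 CPM, next 9.05). In VB type 2 replicate 3 this held for Bradi1g20260.1 (19.4 CPM, next 8.06), Bradi1g26900.1 (4.16 CPM, next 1.12), Bradi1g47277.1 (51.3 CPM, next 21.6), Bradi2g17030.1 (17.6 CPM, next 9.31) and Bradi5g27210.1 (545 CPM, next 299). In VB type 3 replicate 1 this held for Bradi3g51207.1 (143 CPM, next 84.5). In VB type 3 replicate 2 this held for Bradi2g34110.1 (24.8 CPM, next 12.2), Bradi3g00282.1 (13.5 CPM, next 3.69), Bradi3g09660.1 (68.8 CPM, next 50.2) and Bradi3g10270.1 (290.1 CPM, next 128). In VB type 3 replicate 3 this held for Bradi1g09860.1 (6.99 CPM, next 2.304).

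Of the 29 transcripts, 13 were highest in VB type 1 replicate 3, all of them lower in VBs than in parenchyma. Of the others, 5 were highest in VB type 2 replicate 3 and 4 in VB type 3 replicate 2. No explanation was tested.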

How the results depend on the processing

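Against 839 calls (208 higher and 631 lower in VBs), the likelihood ratio test gave 1676 (591 higher, 1085 lower), DESeq2 1829 (873 higher, 956 lower), library totals without TMM 145 (68 higher, 77 lower), and VB libraries of the same number summed 70 (20 higher, 50 lower). Limma-voom gave 906 (74 higher, 832 lower), and the VB libraries as 1 group gave 1053 (346 higher, 707 lower). Leaving out each library in turn gave 573 to 827 calls, 137 to 215 of them higher and 424 to 622 lower, with the fewest higher calls without VB type 1 replicate 2. Among VB types the likelihood ratio test called 3 transcripts, also with the replicate block, against 0 in the quasi-likelihood test. The causes were not tested.

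Equal replicate numbers did not pair VBs with parenchyma, where the correlation of deviations averaged -0.0046 (0 of 9 pairs over 0.1). Between VB types it averaged 0.206 (6 of 9 over 0.1). It was 0.235 to 0.506 for replicates 1, 0.243 to 0.325 for replicates 3 and -0.061 to 0.0115 for replicates 2. Replicates 1 and replicates 3 of the VB types thus varied together, and replicates 2 did not. The main fit did not use the numbers as a pairing and took the 9 VB libraries as independent. Its p-values may be too small where VB libraries of the same number are not independent. The replicate block gave 777 calls (204 higher, 573 lower), of which 162 and 498 were shared with the fit without it. The likelihood ratio test with replicate block gave 1768 (663 higher, 1105 lower). Of 144 named called transcripts, none changed sign under the 26 alternatives, and 96 never lost the call in a fit that left out 1 library. Without parenchyma replicate 2, 3 and 1, the call was kept by 102, 119 and 118 and lost by 37, 21 and 21. The rest failed the filter in those fits and are not counted as lost. More of the 144 lost the call under other settings, 107 with VB libraries of the same number summed, 76 without TMM and 42 in limma-voom. Depth limits transcripts low in parenchyma replicate 3, where 3 pairs equal 1.38 CPM.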

Other observations

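The summed level of the 14 described lipid transfer transcripts differed among VB libraries by replicate number. It was 99.1, 167 and 97.3 CPM in replicate 1 of VB types 1, 2 and 3, and between 476 and 1001 CPM in the other 6 VB libraries, against 2281, 5053 and 1244 CPM in parenchyma replicates 1, 2 and 3. All VB libraries thus lay below all parenchyma libraries. This split was seen in the data and was not tested.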
